A study of Mus musculus with 28 samples.

Results

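Livers of mice with diet-induced steatohepatitis that had received the mid dose of tropifexor were compared with livers of lean mice across all genes. The comparison was chosen by the sample titles and holds 8 of the 28 samples of the series, 4 mid-dose livers and 4 lean livers. The authors' deposited table of these groups lists 47719 genes, of which 15229 were tested. The mice of every group used here were male C57BL/6, about 6 weeks old when the diets began. For 26 weeks the mid-dose mice were fed to develop nonalcoholic steatohepatitis (NASH), in which a fatty liver becomes inflamed and fibrotic. Fat made up 40% of the calories of that diet (Primex), with 22% fructose and 2% cholesterol added. Tropifexor (LJN452) then followed, daily and by mouth, for 4 weeks at 0.3 mg/kg. The labels give 3 doses and 3 group names apart from each other, and the smallest dose was taken as low and the largest as high. A vehicle group of 4 mice shows the NASH diet with vehicle in place of the drug. The treatment field of these samples lists the drug, and the titles, which name vehicle, were followed. Low-dose (0.1 mg/kg) and high-dose (0.9 mg/kg) groups of 4 mice each, on the same diet, are given beside the mid dose in places. The lean mice ate a low-fat diet, with 10% of calories from fat and no fructose or cholesterol. The labels do not say whether the lean mice were dosed, so diet and vehicle dosing cannot be told apart in vehicle against lean.

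Tropifexor activates FXR, the nuclear receptor through which hepatocytes and gut cells sense bile acids. In the liver, active FXR raises the export of bile acids and phospholipids, lowers bile acid uptake and represses bile acid synthesis, in part through the corepressor SHP (gene Nr0b2). FXR also has known effects on fat, glucose and amino acid metabolism. In NASH, lipid-laden hepatocytes stand beside recruited macrophages and activated stellate cells, the cells that lay down collagen.

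Each value is the authors' value for a whole group. An FPKM is a fragment count scaled to transcript length and library size, and a fold change is given as log2 of the first-named group over the second. A gene was called higher or lower when the q-value of the authors' Cuffdiff test, its p adjusted over the tested genes, was under 0.05. Genes with a higher group as low as 0.244 FPKM were tested. The smallest q in the mid-dose against lean table was 0.000418, shared by 1821 genes, and is called the smallest q below. A rescaled standard error (SE) was computed from each deposited fold change and its test statistic. It is approximate, and the calls rest on the deposited q alone. The tables of mid dose against lean, vehicle against lean and mid dose against vehicle share groups, so each was read for its own calls. In whole liver, fewer cells of a type and less RNA per cell cannot be told apart.

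The mid-dose liver differed widely from the lean liver, in both directions. The authors' deposited table called 3523 of 15229 genes (23.1%), with 1776 higher (11.7%) and 1747 lower (11.5%) in mid-dose liver. The median absolute fold change of the called genes was 0.78 (log2). A fold change of at least 1 (log2) was reached by 705 of the higher and 588 of the lower genes. In vehicle liver the table against lean called 3190 of 15484 genes (20.6%), with 1869 higher (12.1%) and 1321 lower (8.53%). Counts of called list members given below are to be read beside these shares over all tested genes. The count of genes off the lean level was therefore not smaller in mid-dose than in vehicle liver. The genes themselves were in large part others, as the following counts show.

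**Figure D1:**
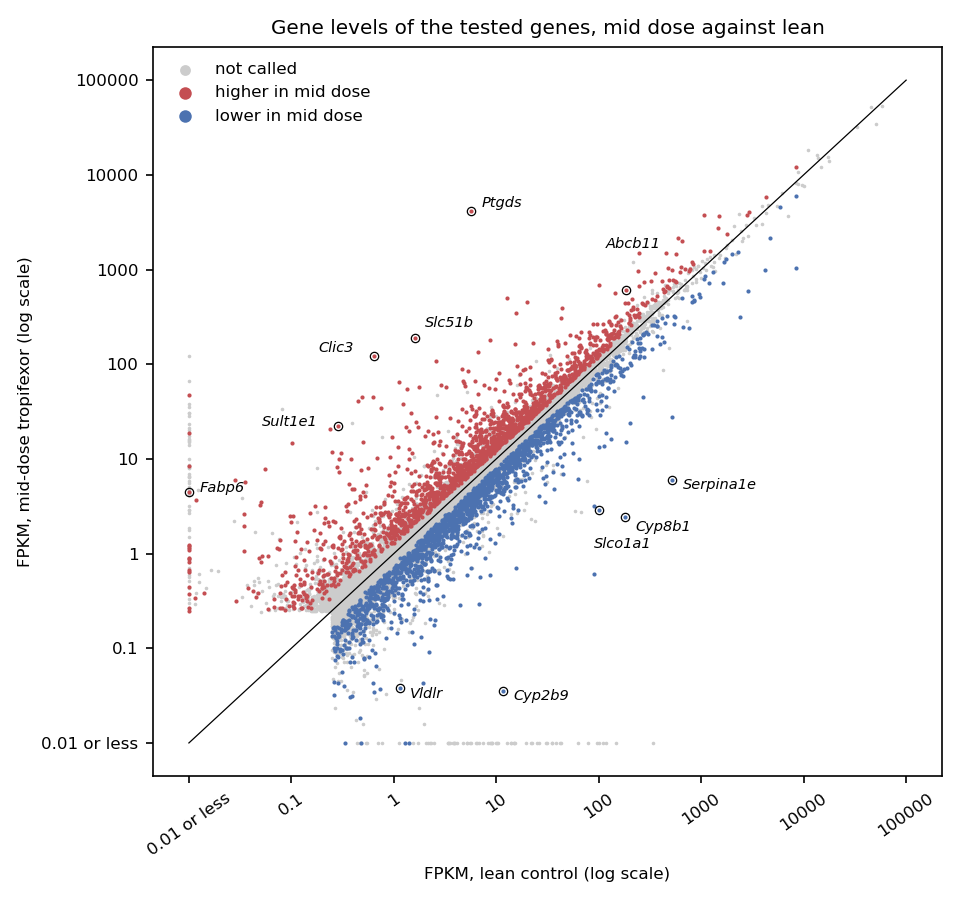
Each point is a tested gene, with its FPKM in mid-dose liver on the vertical and in lean liver on the horizontal axis, both on log scales, and genes listed at 0.01 FPKM or less drawn at that edge. Red genes were called higher and blue genes lower in mid-dose liver, and Ptgds, at 4101 against 5.70 FPKM, stands farthest above the diagonal of the labelled genes.

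Of 14607 genes tested in all 3 tables, 3403 were called in mid dose against lean and 2943 in vehicle against lean. A gene was said to stay different when it was called on the same side of lean in both groups, which held for 1118 genes, 32.9% of those called in mid dose and 38.0% of those called in vehicle. Of these, 692 had no call in mid dose against vehicle, 288 lay farther from lean in mid-dose than in vehicle liver and 138 lay nearer, each by a call in the table of mid dose against vehicle. A gene was said to become different when it was called in mid dose against lean and against vehicle in the same direction but not in vehicle against lean. This held for 1397 genes, 723 higher and 674 lower in mid-dose liver, 41.1% of those called in mid dose. On the other side, 1155 genes that differed from lean in vehicle liver were not called in mid dose and had moved back by a call against vehicle. Of these returned genes, 802 had been higher and 353 lower in vehicle liver. In 259 genes the mid-dose and vehicle groups were called on opposite sides of lean. Another 629 genes were called in mid dose alone and 409 in vehicle alone without a call between mid dose and vehicle, so for them no difference between the groups was shown. The table of mid dose against vehicle called 4319 of 15686 genes (27.5%), 1849 higher (11.8%) and 2470 lower (15.7%). The plot of gene counts shows that the returned genes were mostly above lean in vehicle liver, while genes that became different were close to even.

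**Figure D2:**
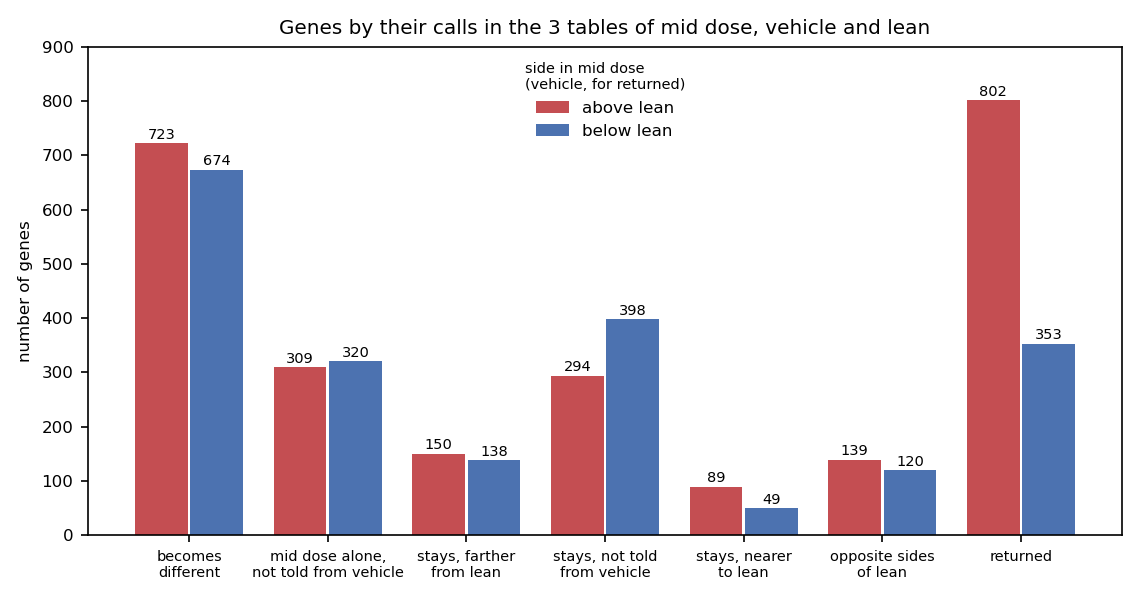
Bars give the number of genes in each group of calls, red above and blue below lean, by the side of the mid-dose liver (of the vehicle liver for the returned genes). The returned genes were 802 above and 353 below lean in vehicle liver, while 723 genes became higher and 674 became lower in mid-dose liver.

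Among called genes with a finite fold change and at least 1 FPKM in the higher group, the largest rise over lean was that of Ptgds, the lipocalin-type prostaglandin D synthase. Ptgds had 4101 FPKM in mid-dose liver, against 5.70 FPKM in lean liver, 719-fold higher (log2 9.49, SE 0.20, smallest q of the authors' deposited table). In vehicle liver it was lower than in lean liver, with a log2 fold change of -0.86 by the authors' deposited table. Clic3, a chloride intracellular channel protein, had 121 FPKM in mid-dose liver, against 0.646 FPKM in lean liver. Its rise of 7.55 (log2, SE 0.78) was also called in the authors' deposited table, and it was not called in vehicle liver. Clic3 overlaps BC029214 on the other strand, so its reads may in part be those of that gene. Dnah1, a heavy chain of the axonemal dynein motor, had 3.71 FPKM in mid-dose liver, against 0.0118 FPKM in lean liver. Trpm6, a magnesium channel of gut and kidney, had 7.89 FPKM in mid-dose liver, against 0.0553 FPKM in lean liver.

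Some of the largest rises were already present in vehicle liver. Sult1e1, the sulfotransferase that inactivates estrogen, had 22.1 FPKM in mid-dose liver, against 0.288 FPKM in lean liver. Its log2 fold change over lean was 6.26 (SE 0.27) in mid-dose and 5.16 in vehicle liver, both called in the authors' deposited tables. Spink1, a trypsin inhibitor that the liver makes in regeneration and cancer, had 14.9 FPKM in mid-dose liver, against 0.101 FPKM in lean liver. Lrtm2 and 6030419C18Rik followed the same course, with 7.35 and 7.71 (log2) in mid-dose liver and 5.50 and 5.30 in vehicle liver over lean, in the authors' deposited tables.

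By the same limits, which hold for all largest changes given here, the largest falls included secreted and drug-metabolising proteins of the adult liver. Cyp2b9, a cytochrome P450, had 0.0357 FPKM in mid-dose liver, against 11.6 FPKM in lean liver. Mup11, a major urinary protein, had 0.610 FPKM in mid-dose liver, against 90.4 FPKM in lean liver. Serpina1e, an alpha-1-antitrypsin copy, had 6.04 FPKM in mid-dose liver, against 524 FPKM in lean liver. The reads of these families may be split between copies, so the value of a single copy is uncertain. The same holds for Cyp3a11, Scd1, Acot1, H2-Aa, Ifit1, Ifit3, Saa3 and Ly6d, which appear in the lists that follow. Slco1a1, an organic anion transporter with no such copies marked, had 2.87 FPKM in mid-dose liver, against 99.6 FPKM in lean liver. Its log2 fold change was -5.12 (SE 0.13) in mid-dose and -2.21 in vehicle liver, both called in the authors' deposited tables. Vldlr, the receptor for very low density lipoprotein, fell to 0.0380 FPKM in mid-dose liver, against 1.15 FPKM in lean liver, and was at 0.05 (log2) over lean, not called, in vehicle liver in the authors' deposited table.

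Several exporters of bile acids and phospholipid rose, while the receptor FXR and the main uptake carrier of bile acids were lower than in lean liver. Slc51b, the beta subunit of the basolateral bile acid exporter, had 188 FPKM in mid-dose liver, against 1.60 FPKM in lean liver, 118-fold higher (log2 6.88, SE 0.25, smallest q of the authors' deposited table). Slc51a, its alpha subunit, was listed at 0.00817 FPKM in mid-dose liver and 0.00580 FPKM in lean liver and was not tested. Abcb11, the bile salt export pump of the canalicular membrane, had 605 FPKM in mid-dose liver, against 186 FPKM in lean liver. Abcb11 rose by 1.70 (log2, SE 0.23) over lean and by 2.18 over vehicle, both called in the authors' deposited tables. Abcb4, the phosphatidylcholine floppase, had 199 FPKM in mid-dose liver, against 59.8 FPKM in lean liver. At 1.73 (log2) over lean it lay farther from lean than in vehicle liver, where it was called higher too, at 0.62, by the authors' deposited tables. Nr0b2, the corepressor SHP, had 154 FPKM in mid-dose liver, against 40.1 FPKM in lean liver. It was called 1.94 higher than lean in mid-dose liver and 0.61 lower (log2 -0.61) in vehicle liver, in the authors' deposited tables. Fabp6, the ileal bile acid binding protein and a classic FXR target of the gut, had 4.52 FPKM in mid-dose liver and was listed at 0 in lean liver.

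Promoter sequences of Abcb11 and Fabp6 are shown because both genes were called higher in mid-dose liver and hold an inverted repeat of the nuclear receptor half-site close to their start. Capitals mark each match of AGGTCA, any 1 base and TGACCT with at most 2 mismatches, and in Fabp6 also a sterol element, described with the cholesterol genes. They are 250 bases before the transcription start, 5′ to 3′ in the direction of the gene, from RefSeq on GRCm38.p6. Abcb11 lies at chr2:69342617-69342866 on the minus strand, and its matches span 94 to 82 and 63 to 51 bases before the start.
Abcb11: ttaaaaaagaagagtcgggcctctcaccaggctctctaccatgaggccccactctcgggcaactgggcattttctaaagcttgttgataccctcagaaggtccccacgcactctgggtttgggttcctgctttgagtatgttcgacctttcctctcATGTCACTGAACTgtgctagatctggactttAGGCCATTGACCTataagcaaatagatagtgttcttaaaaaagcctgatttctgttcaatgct
Fabp6 lies at chr11:43601563-43601812 on the minus strand, with repeats 222 to 210 and 142 to 130 bases and a sterol element 69 to 61 bases before the start.
Fabp6: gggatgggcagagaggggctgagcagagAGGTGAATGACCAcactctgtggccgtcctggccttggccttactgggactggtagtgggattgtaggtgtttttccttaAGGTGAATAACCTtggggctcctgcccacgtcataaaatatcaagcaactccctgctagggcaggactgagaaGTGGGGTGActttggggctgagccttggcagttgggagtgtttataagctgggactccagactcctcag
The repeat was found in the 300 bases around a start (250 before, 50 after) of 364 of 27025 genes (1.35%). It was found in 25 of 1289 genes higher in mid-dose liver (1.94%) and in 12 of 1267 lower genes (0.95%), against 126 of 10237 tested genes (1.23%) with a promoter in that table. Of 20 list genes of bile acid regulation with a promoter there, Abcb11 alone held it. A match is a description of letters and not a binding site, and nothing is drawn from its absence in this window.

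The list of bile acid regulators and FXR targets had 24 genes, of which 23 were tested. The authors' deposited table called 8 higher and 7 lower in mid-dose liver, and the median was 0.06 (log2), against -0.003 over all tested genes. Besides those above, Akr1b7 (an aldo-keto reductase that reduces lipid aldehydes) had 40.8 FPKM in mid-dose liver, against 0.449 FPKM in lean liver. Osgin1, an oxidative stress induced growth inhibitor, had 679 FPKM in mid-dose liver, against 100 FPKM in lean liver. Nr1i2, the xenobiotic receptor PXR, rose by 2.14 (log2, SE 0.11) in the authors' deposited table. Among the lower genes were FXR itself (Nr1h4), with 22.4 FPKM in mid-dose and 64.2 FPKM in lean liver, and Fgfr4, the liver receptor of the gut hormone FGF15, with 6.81 FPKM in mid-dose and 15.2 FPKM in lean liver. Klb, the coreceptor of FGF15, was called lower than lean in both groups, at -0.81 in mid-dose and -1.37 (log2) in vehicle liver, in the authors' deposited tables.

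Of 15 bile acid synthesis genes, all tested, 3 were called higher and 4 lower in mid-dose liver in the authors' deposited table. Cyp8b1, the sterol hydroxylase that sets the share of cholic acid, fell to 2.44 FPKM in mid-dose liver, against 182 FPKM in lean liver, 74.4-fold lower (log2 -6.22, SE 0.15). Its log2 fold change over lean in vehicle liver was -1.17, called in the authors' deposited table. Cyp7a1, the rate-limiting enzyme of the classic pathway, had 4.67 FPKM in mid-dose liver and 8.28 FPKM in lean liver, a difference that was not called (q = 0.147). In vehicle liver it had been higher than lean by 2.42 (log2), and it was 3.24 lower than that in mid-dose liver (log2 -3.24), both called in the authors' deposited tables. Cyp7b1, the oxysterol hydroxylase of the alternative pathway, was lower in mid-dose than in lean liver by 1.23 (log2, SE 0.11). Akr1d1, the bile acid 5-beta reductase, had 202 FPKM in mid-dose liver, against 82.5 FPKM in lean liver, and was called lower than lean in vehicle liver in the authors' deposited tables. Of 7 uptake genes, 2 were called higher and 3 lower. Slc10a1, the sodium taurocholate cotransporter, had 244 FPKM in mid-dose liver, against 757 FPKM in lean liver. Its fall from the lean level was present in vehicle liver too, with log2 fold changes of -1.64 in mid-dose and -1.86 in vehicle liver and no call between those groups, in the authors' deposited tables.

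Cholesterol synthesis genes stood at or above the lean level in mid-dose liver, on the other side from vehicle liver. All 21 were tested. The authors' deposited tables called 10 higher and 0 lower in mid-dose liver, with a median of 0.53 (log2), and 0 higher and 17 lower in vehicle liver, with a median of -1.52. Of the 21 genes, 9 were called on opposite sides of lean in mid-dose and vehicle liver and 8 returned. Hmgcs1, the cytosolic HMG-CoA synthase, had 153 FPKM in mid-dose liver, against 66.7 FPKM in lean liver, and was called on the other side of lean in vehicle liver, at -1.32 (log2), in the authors' deposited tables. Mvk, mevalonate kinase, rose by 1.05 and Fdft1, squalene synthase, by 1.19 (log2) in the authors' deposited table. Sqle, squalene epoxidase, had 29.4 FPKM in mid-dose liver and 24.2 FPKM in lean liver, which was not called (q = 0.0729). In vehicle liver Sqle lay 3.95 below lean (log2 -3.95), by the authors' deposited table. Fdps, farnesyl diphosphate synthase, and Lss, lanosterol synthase, returned in the same way, with 0.08 and 0.44 (log2) in mid-dose liver and -2.24 and -1.68 in vehicle liver over lean, in the authors' deposited tables.

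The Hmgcs1 promoter is shown because it holds the sterol element TCACNCCAC, a motif of SREBP2 targets, in capitals. It is the same stretch of 250 bases before the start, from RefSeq on GRCm38.p6, at chr13:119690101-119690350 on the plus strand, and the element lies 137 to 129 bases before the start.
Hmgcs1: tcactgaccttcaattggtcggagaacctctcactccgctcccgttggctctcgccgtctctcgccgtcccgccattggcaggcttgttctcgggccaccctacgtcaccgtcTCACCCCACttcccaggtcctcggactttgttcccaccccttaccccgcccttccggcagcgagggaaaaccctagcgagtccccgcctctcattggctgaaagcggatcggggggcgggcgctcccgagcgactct
Searched on both strands, the element was found in 388 of 27025 genes (1.44%) and in 1 of 16 cholesterol synthesis genes with a promoter in that table. It was found in 22 of 1289 higher genes (1.71%) and 21 of 1267 lower genes (1.66%).

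Srebf2, the transcription factor SREBP2 itself, had 16.6 FPKM in mid-dose liver, against 11.0 FPKM in lean liver, and was called below lean in vehicle liver, in the authors' deposited tables. Insig1, which holds SREBP in the endoplasmic reticulum, stayed below lean, at -0.61 in mid-dose and -1.87 (log2) in vehicle liver, in the authors' deposited tables. Of 10 tested genes in the list of SREBP2 and LDL uptake, 2 were called higher and 4 lower. Among 14 LXR and cholesterol efflux genes 3 were called higher and 2 lower, against 11.7% higher and 11.5% lower over all tested genes. Scarb1, the HDL receptor, had 267 FPKM in mid-dose liver, against 95.6 FPKM in lean liver, and became different with the drug. Abcg5, a sterol exporter into bile, and Abcg1, an efflux pump of macrophages, stayed above lean, at 0.77 and 1.22 in mid-dose liver and 0.85 and 1.31 (log2) in vehicle liver, in the authors' deposited tables.

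**Figure D3:**
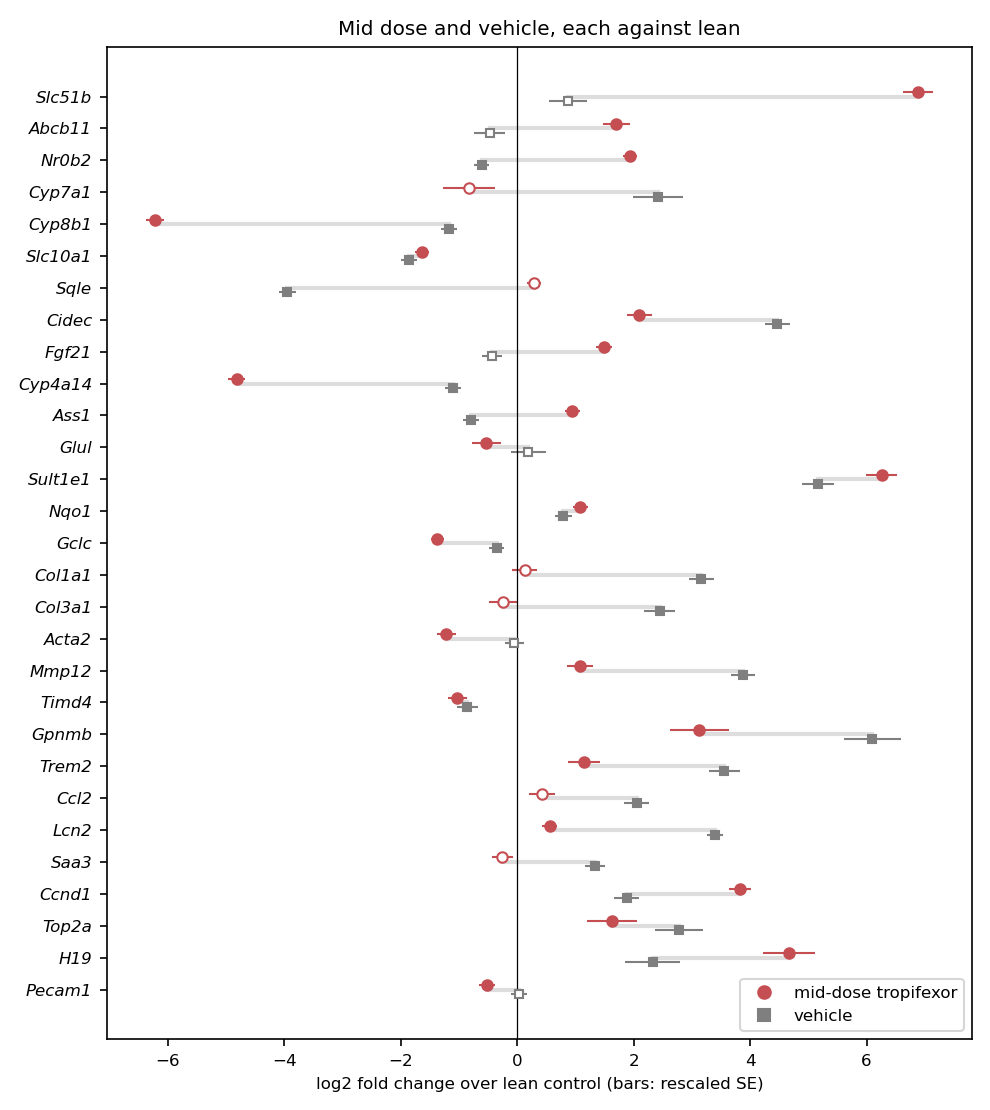
Log2 fold changes over lean control of named genes in mid-dose liver (red circles) and vehicle liver (grey squares), with rescaled SE as bars. Filled symbols were called against lean. Slc51b, at 6.88, lies farthest to the right of the mid-dose values, and Gpnmb, at 6.10, of the vehicle values.

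Fatty acid synthesis genes stayed lower in part. Of 18 genes tested, 2 were called higher and 7 lower in mid-dose liver and 2 higher and 9 lower in vehicle liver, in the authors' deposited tables. Pnpla3, a lipid droplet acyltransferase and hydrolase, had 0.546 FPKM in mid-dose liver, against 3.41 FPKM in lean liver, and was -2.64 in mid-dose and -2.41 (log2) in vehicle liver over lean. Dgat2, which makes triglyceride, fell to 116 FPKM in mid-dose liver, against 247 FPKM in lean liver. Pklr, the liver pyruvate kinase, had 121 FPKM in mid-dose liver, against 255 FPKM in lean liver. Thrsp, a lipogenic protein, went the other way, with 1510 FPKM in mid-dose liver, against 249 FPKM in lean liver (log2 2.60, SE 0.13, smallest q of the authors' deposited table). Scd1, the stearoyl-CoA desaturase, had 2275 FPKM in mid-dose and 2856 FPKM in lean liver and was not called. Fasn, fatty acid synthase, had 607 FPKM in mid-dose and 334 FPKM in lean liver, a q of 0.0555 in the authors' deposited table. Srebf1, its regulator, had 224 FPKM in mid-dose and 297 FPKM in lean liver and was not called.

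Of 16 tested lipid droplet genes, 5 were called higher and 2 lower in mid-dose liver, in the authors' deposited table. Cidec, a droplet fusion protein of steatotic hepatocytes, had 13.8 FPKM in mid-dose liver, against 3.22 FPKM in lean liver. It stayed above lean but nearer to it, at 2.10 (SE 0.21) in mid-dose and 4.46 (log2) in vehicle liver, with a called difference between them in the authors' deposited table. Plin2, the common coat protein of liver droplets, had 458 FPKM in mid-dose liver, against 296 FPKM in lean liver, and was not called against vehicle. Plin5, a droplet protein that docks mitochondria, rose by 1.47 (log2) and lay farther from lean than in vehicle liver, by the authors' deposited tables. Cidea had 0.0330 FPKM in mid-dose and 0.846 FPKM in lean liver, not called (q = 0.207), while it was called 4.50 (log2) above lean in vehicle liver. The adipocyte gene Cfd, adipsin, had 0.0466 FPKM in mid-dose and 1.17 FPKM in lean liver, not called, and Fabp4, a fatty acid binding protein of fat cells and macrophages, had 6.49 FPKM in mid-dose and 5.88 FPKM in lean liver, not called either. Both were called above lean in vehicle liver, as Cidea was, at 4.57 and 2.07 (log2) in the authors' deposited table, and their part in its difference was not tested. The other 4 adipocyte genes, Adipoq, Plin1, Lep and Retn, were at or under 0.123 FPKM in both groups, and the list summed to 6.59 FPKM in mid-dose and 7.34 FPKM in lean liver.

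PPAR alpha, the fasting and fatty acid sensor, and its targets were mostly lower where called. Of 24 genes tested, 4 were called higher and 9 lower in mid-dose liver, and 5 higher and 3 lower in vehicle liver, in the authors' deposited tables. Cyp4a14 and Cyp4a10, fatty acid omega-hydroxylases of a family with near-identical copies, had 3.17 and 13.6 FPKM in mid-dose liver, against 89.5 and 113 FPKM in lean liver. Acot1, an acyl-CoA thioesterase, had 0.769 FPKM in mid-dose liver, against 3.53 FPKM in lean liver. Ppara fell by 1.22 (log2, SE 0.27) in the authors' deposited table, and both became different with the drug. The beta-oxidation enzymes Cpt1a, Acadl, Acadm and Hadha lay between -0.18 and 0.12 (log2) of lean and were not called. Pdk4, the kinase that closes pyruvate dehydrogenase, had 9.08 FPKM in mid-dose liver, against 2.37 FPKM in lean liver. Fgf21, the fasting hormone of the liver, had 17.5 FPKM in mid-dose liver, against 6.22 FPKM in lean liver (log2 1.49, SE 0.14, smallest q of the authors' deposited table) and was not called in vehicle liver.

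Glucose genes were called higher in 3 and lower in 6 of 14 cases in the authors' deposited table. Igfbp1, an insulin-repressed binding protein of insulin-like growth factors, had 3.49 FPKM in mid-dose liver, against 30.0 FPKM in lean liver. G6pc, the last enzyme of glucose output, fell to 34.0 FPKM in mid-dose liver, against 76.9 FPKM in lean liver (log2 -1.18, SE 0.12). Gys2, liver glycogen synthase, fell by 0.93 (log2) in the authors' deposited table. Pck1, the entry enzyme of gluconeogenesis, had 406 FPKM in mid-dose and 413 FPKM in lean liver, not called, after a called fall in vehicle liver.

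Genes of the liver's zones moved in opposite directions. Of 15 urea cycle and periportal genes, 8 were called higher and 0 lower in mid-dose liver, with a median of 0.38 (log2), while 0 were called higher and 7 lower in vehicle liver, in the authors' deposited tables. Ass1, argininosuccinate synthase, had 989 FPKM in mid-dose liver, against 514 FPKM in lean liver. Its fold changes over lean were 0.95 (SE 0.13) in mid-dose and -0.79 (log2) in vehicle liver, both called in the authors' deposited tables. Hal, histidine ammonia lyase, had 492 FPKM in mid-dose liver, against 211 FPKM in lean liver, and was also on opposite sides of lean. Cyp2f2, a periportal cytochrome P450, had 1465 FPKM in mid-dose liver, against 568 FPKM in lean liver, and became different with the drug. Cps1, the first enzyme of the urea cycle, and Otc, the second, were 0.38 (not called) and 0.58 (called) over lean on the log2 scale, in the authors' deposited table.

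Of 15 pericentral genes, 0 were called higher and 10 lower in mid-dose liver, with a median of -0.72 (log2), in the authors' deposited table. In vehicle liver 2 were called higher and 3 lower, with a median of -0.001. Cyp2e1, the ethanol-oxidising cytochrome P450, had 977 FPKM in mid-dose liver, against 4186 FPKM in lean liver (log2 -2.10, SE 0.15, smallest q of the authors' deposited table). Slc1a2, a glutamate transporter, had 7.34 FPKM in mid-dose liver, against 35.6 FPKM in lean liver. Lgr5, a receptor of the Wnt agonists called R-spondins, had 0.513 FPKM in mid-dose liver, against 1.50 FPKM in lean liver. Glul, glutamine synthetase of the innermost hepatocytes, had 208 FPKM in mid-dose liver, against 299 FPKM in lean liver (log2 -0.53, SE 0.25, q = 0.0253 in the authors' deposited table). Slc1a2, Lgr5 and Glul were not called in vehicle against lean. The Wnt target Axin2, with 2.85 FPKM in mid-dose and 2.77 FPKM in lean liver, was not called.

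Among 15 tested genes of hepatocyte identity, 2 were called higher and 6 lower in mid-dose liver, in the authors' deposited table. Alb, albumin, had 34278 FPKM in mid-dose and 51274 FPKM in lean liver and was not called (q = 0.310). Ttr, transthyretin, fell to 2145 FPKM in mid-dose liver, against 4697 FPKM in lean liver. Hnf4a, the central hepatocyte transcription factor, had 204 FPKM in mid-dose liver, against 126 FPKM in lean liver, and was called on the other side of lean in vehicle liver. Cebpa, another, fell by 0.88 (log2, SE 0.11) in the authors' deposited table.

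Growth hormone and sex-biased genes were mixed, with 5 called higher and 7 lower of 18 tested in the authors' deposited table. Hsd3b5, a male-specific steroid dehydrogenase, had 5.82 FPKM in mid-dose and 77.0 FPKM in lean liver, which was not called (log2 -3.72, q = 0.123 in the authors' deposited table). Cux2, a female-biased repressor, fell by 2.37 (log2) at a low level of 0.0718 FPKM in mid-dose liver, against 0.370 FPKM in lean liver. Sult1e1, known as high in female liver, also belongs to the list and is given above. Igf1 had 252 FPKM in mid-dose and 263 FPKM in lean liver and was not called. Ghr, the growth hormone receptor, stayed lower, at -0.59 in mid-dose and -0.60 (log2) in vehicle liver, both called in the authors' deposited tables.

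In the list of cytochrome P450 and xenobiotic genes, 6 of 18 tested were called higher and 8 lower. Cyp2c29, of a family with near-identical copies, fell to 27.9 FPKM in mid-dose liver, against 518 FPKM in lean liver. Abcb1a, the drug efflux pump P-glycoprotein, had 57.9 FPKM in mid-dose liver, against 3.26 FPKM in lean liver (log2 4.15, SE 1.16, smallest q of the authors' deposited table), and was at -0.04 (log2), not called, in vehicle liver. Cyp3a11, the main PXR target of mouse liver, stayed above lean, at 1.41 in mid-dose and 1.91 (log2) in vehicle liver, in the authors' deposited tables. Cyp2b10, the main target of the receptor CAR, had 0.161 FPKM in mid-dose and 0.0829 FPKM in lean liver and was not tested.

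Antioxidant genes were mainly higher. Of 32 tested genes in the list of NRF2 (the transcription factor of the oxidative stress response) and antioxidant genes, 18 were called higher and 3 lower in mid-dose liver, with a median of 0.47 (log2), in the authors' deposited table. In vehicle liver 12 were called higher and 1 lower, with a median of 0.21. The glutathione transferases led the list. Gsta1 had 9.97 FPKM in mid-dose liver, against 0.290 FPKM in lean liver, and Gstm3 had 351 FPKM in mid-dose liver, against 15.7 FPKM in lean liver, both with near-identical relatives in the genome. Their log2 fold changes over lean were 5.11 and 4.49 in mid-dose and 4.22 and 2.73 in vehicle liver, all called in the authors' deposited tables. Nqo1, a quinone reductase, had 8.76 FPKM in mid-dose liver, against 4.12 FPKM in lean liver, and was not called between mid dose and vehicle. Against the direction of the list, Gclc, the catalytic subunit of glutathione synthesis, had 45.0 FPKM in mid-dose liver, against 116 FPKM in lean liver (log2 -1.37, SE 0.11, smallest q of the authors' deposited table). Hmox1, heme oxygenase, fell to 8.58 FPKM in mid-dose liver, against 16.4 FPKM in lean liver. Gpx3, a plasma glutathione peroxidase, stayed above lean, at 0.67 in mid-dose and 1.74 (log2) in vehicle liver, in the authors' deposited tables.

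Endoplasmic reticulum stress genes were called higher in 1 and lower in 9 of 18 cases, with a median of -0.35 (log2), in the authors' deposited table. At q under 0.01, 5 were lower. The chaperones Hspa5 and Pdia4 fell by 0.44 and 0.68 (log2), and Chac1, a glutathione-degrading target of the stress factor ATF4, by 1.67 (SE 0.21), in the authors' deposited table. Atf3, a stress-induced transcription factor, was the exception, with 12.9 FPKM in mid-dose liver, against 1.42 FPKM in lean liver. Ddit3 had 6.54 FPKM in mid-dose and 10.3 FPKM in lean liver, not called. Of 24 oxidative phosphorylation genes, 7 were called higher and 0 lower in mid-dose liver, with a median of 0.35 (log2), and 1 higher and 0 lower in vehicle liver, in the authors' deposited tables. The mid-dose values ran from -0.20 (Ucp2) to 0.61 (Ndufv1, a complex I subunit) on the log2 scale.

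**Figure D4:**
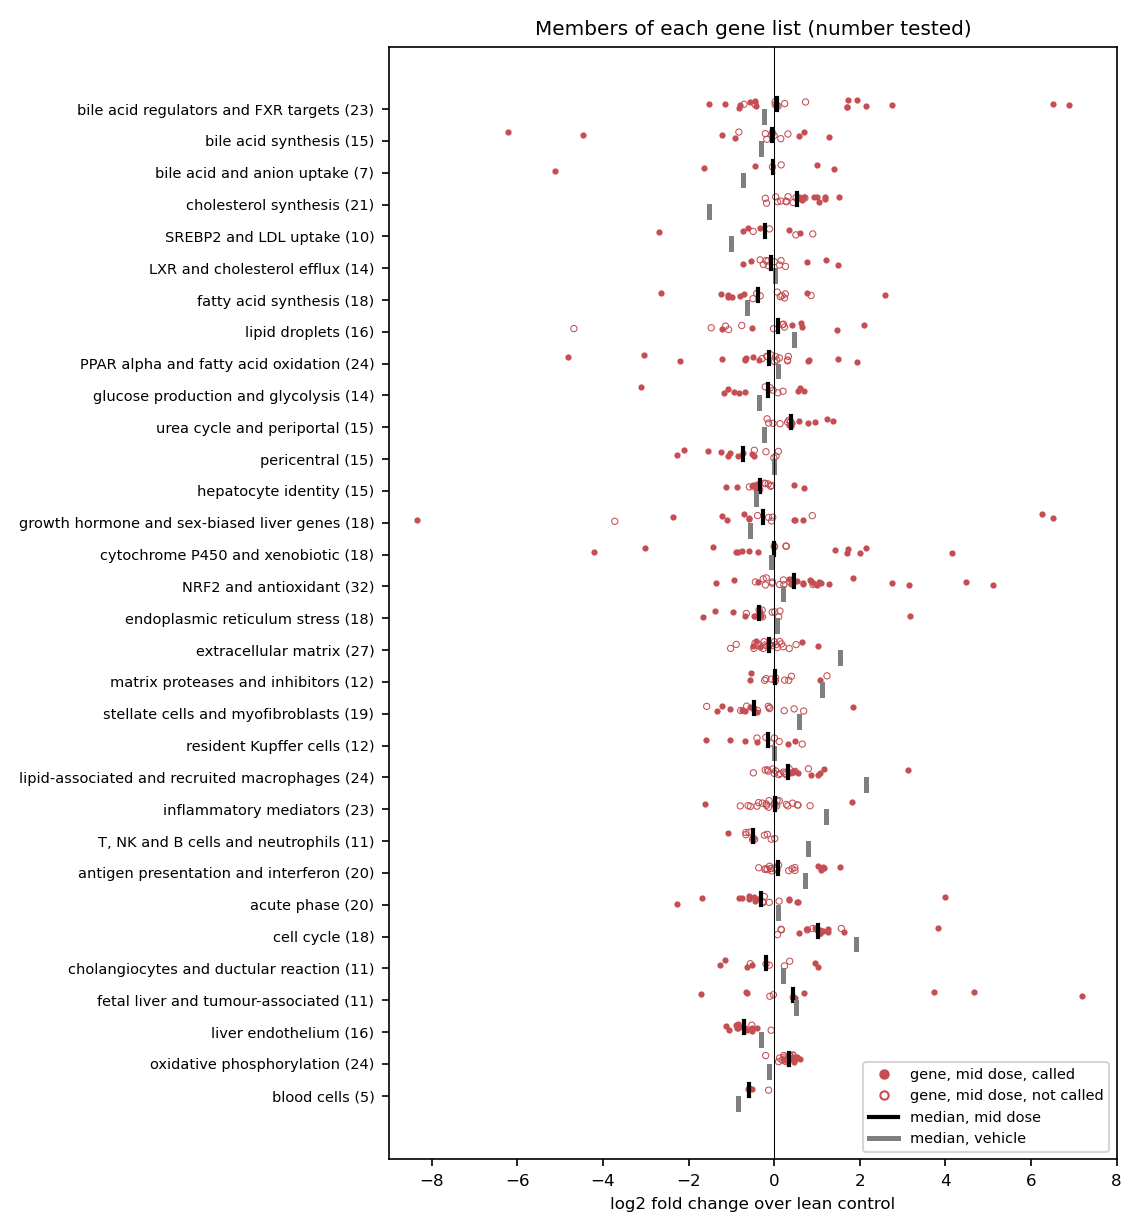
Log2 fold changes over lean control of each tested list member in mid-dose liver (red, filled where called) with the list's median in mid-dose (black bar) and vehicle liver (grey bar). The mid-dose medians of the extracellular matrix (-0.12), recruited macrophage (0.31) and inflammatory lists (0.01) lie far below the vehicle medians of 1.53, 2.15 and 1.21, and lists with fewer than 5 tested genes are not drawn.

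Scar matrix genes were near the lean level in mid-dose liver. Of 27 extracellular matrix genes tested, 2 were called higher and 3 lower than lean, with a median of -0.12 (log2), against 26 higher and 1 lower of 28 in vehicle liver, with a median of 1.53, in the authors' deposited tables. Of these genes, 19 returned by the rule above. Col1a1, which encodes the more abundant chain of fibrillar collagen in scars, had 1.48 FPKM in mid-dose and 1.36 FPKM in lean liver (log2 0.13, SE 0.22, q = 0.678). Its fold change over lean in vehicle liver was 3.16 (log2), called in the authors' deposited table. Col3a1 had 11.9 FPKM in mid-dose and 14.0 FPKM in lean liver, also not called. The 2 genes still higher were Spp1, osteopontin, with 60.8 FPKM in mid-dose liver, against 30.0 FPKM in lean liver, and Lum, the collagen-binding lumican, with 6.11 FPKM in mid-dose liver, against 3.89 FPKM in lean liver. The 3 lower genes were Col4a1, a basement membrane collagen, Fbn1, fibrillin, and Sparc, a matrix glycoprotein, at -0.49, -0.42 and -0.34 (log2) in the authors' deposited table, all called above lean in vehicle liver. At q under 0.01 none of these 3 was called lower than lean. Lox, the collagen-crosslinking lysyl oxidase, had 0.0769 FPKM in mid-dose and 0.0712 FPKM in lean liver and was not tested.

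Of 12 tested matrix proteases and inhibitors, 1 was called higher and 2 lower, a share near the 23.1% called over all tested genes. Mmp12, the macrophage elastase, had 3.30 FPKM in mid-dose liver, against 1.56 FPKM in lean liver, and was nearer to lean than in vehicle liver, at 1.08 and 3.88 (log2), in the authors' deposited tables. Timp1, a protease inhibitor of fibrotic liver, had 0.930 FPKM in mid-dose and 0.396 FPKM in lean liver and was not called (q = 0.664). Mmp13, a collagenase, had 0.239 FPKM in mid-dose and 0.149 FPKM in lean liver and was not tested. Timp3 and Mmp14, a membrane-bound protease, fell by 0.58 and 0.54 (log2) in the authors' deposited table and became different with the drug.

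Stellate cell and myofibroblast genes were lower than lean where called, except Postn. Of 19 tested, 1 was called higher and 7 lower in mid-dose liver, with a median of -0.48 (log2), and 12 higher and 2 lower in vehicle liver, with a median of 0.58, in the authors' deposited tables. Acta2, smooth muscle actin, had 1.81 FPKM in mid-dose liver, against 4.20 FPKM in lean liver (log2 -1.21, SE 0.17, smallest q of the authors' deposited table), and it was not called in vehicle liver. Ngfr, a neurotrophin receptor of stellate cells, had 0.784 FPKM in mid-dose liver, against 1.98 FPKM in lean liver. Pdgfrb, their growth factor receptor, had 2.23 FPKM in mid-dose liver, against 2.93 FPKM in lean liver, and Ctgf (Ccn2), a fibrogenic growth factor, had 1.25 FPKM in mid-dose liver, against 2.56 FPKM in lean liver. Pdgfrb and Ctgf were called below lean in mid-dose liver and above it in vehicle liver, in the authors' deposited tables. Postn, periostin, had 15.3 FPKM in mid-dose liver, against 4.24 FPKM in lean liver, and stayed with no call between mid dose and vehicle.

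Most recruited macrophage genes had no call against lean in mid-dose liver. Of 24 lipid-associated and recruited macrophage genes, all tested, 8 were called higher and 0 lower in mid-dose liver, with a median of 0.31 (log2), and 21 higher and 1 lower in vehicle liver, with a median of 2.15, in the authors' deposited tables. By the rules above, 12 returned, and the 8 that stayed were each nearer to lean than in vehicle liver. At q under 0.01, 5 were called higher. Gpnmb, a glycoprotein of lipid-laden macrophages, had 2.21 FPKM in mid-dose liver, against 0.252 FPKM in lean liver, which is 3.13 (SE 0.50) in mid-dose and 6.10 (log2) in vehicle liver over lean, in the authors' deposited tables. Trem2, a lipid receptor of the same cells, had 2.07 FPKM in mid-dose liver, against 0.933 FPKM in lean liver. Ccr2, the receptor of recruited monocytes, had 0.796 FPKM in mid-dose and 0.624 FPKM in lean liver and was not called. The pan-macrophage genes Adgre1 and Cd68 were at -0.16 and 0.00 (log2) over lean and were not called, in the authors' deposited table.

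Of 12 resident Kupffer cell genes, 2 were called higher and 4 lower in mid-dose liver, in the authors' deposited table. Timd4, a receptor of long-lived Kupffer cells, had 1.34 FPKM in mid-dose liver, against 2.72 FPKM in lean liver, and was -1.03 in mid-dose and -0.86 (log2) in vehicle liver over lean with no call between them. Cd163, the haemoglobin scavenger receptor, had 1.16 FPKM in mid-dose liver, against 3.50 FPKM in lean liver, and was called below lean in both groups. Clec4f, a lectin that marks Kupffer cells in mouse, had 40.1 FPKM in mid-dose and 45.9 FPKM in lean liver and was not called.

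Of 23 tested inflammatory mediators, 1 was called higher and 1 lower than lean in mid-dose liver, with a median of 0.01 (log2), and 19 of 26 were higher and 1 lower in vehicle liver, in the authors' deposited tables. Ccl2, the monocyte chemokine, had 2.54 FPKM in mid-dose and 1.89 FPKM in lean liver (q = 0.191), after a rise of 2.05 (log2) in vehicle liver by the authors' deposited table. Tlr2, a receptor for bacterial lipoproteins, had 1.22 FPKM in mid-dose and 1.57 FPKM in lean liver and was not called. Ccl9, a myeloid chemokine, was the called rise, with 112 FPKM in mid-dose liver, against 31.8 FPKM in lean liver, and it was not called in vehicle liver. Cxcl1, a neutrophil chemokine, was the called fall, with 2.83 FPKM in mid-dose liver, against 8.72 FPKM in lean liver. Tnf had 0.210 FPKM in mid-dose and 0.243 FPKM in lean liver and was not tested.

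Lymphocyte and neutrophil genes were low, and 11 of 25 were tested, with 0 called higher and 1 lower in the authors' deposited table. The lower gene was S100a8, a neutrophil calcium-binding protein, with 1.05 FPKM in mid-dose liver, against 2.19 FPKM in lean liver. Cd8a had 0.172 FPKM in mid-dose and 0.136 FPKM in lean liver and was not tested. Among 20 antigen presentation and interferon genes, 5 were called higher and 0 lower, against 11.7% higher and 11.5% lower over all tested genes. The MHC class II gene H2-Aa had 48.6 FPKM in mid-dose and 50.9 FPKM in lean liver, not called, after a called rise of 1.58 (log2) in vehicle liver in the authors' deposited table. The interferon-induced genes Ifit1, Ifit3, Irf7, Usp18 and Isg15 were the 5 called higher, at 1.53, 1.15, 1.15, 1.10 and 1.01 (log2) in the authors' deposited table. Ifit1 had 12.1 FPKM in mid-dose liver, against 4.19 FPKM in lean liver.

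Acute phase genes were called higher in 5 and lower in 10 of 20 cases, with a median of -0.32 (log2), in the authors' deposited table. At q under 0.01, 2 were higher. Hamp, the iron hormone hepcidin, fell to 595 FPKM in mid-dose liver, against 2852 FPKM in lean liver (log2 -2.26, SE 0.33, smallest q). Apcs, serum amyloid P, fell to 36.6 FPKM in mid-dose liver, against 119 FPKM in lean liver. Orm3, an orosomucoid with near-identical copies, had 84.9 FPKM in mid-dose liver, against 5.33 FPKM in lean liver. Lcn2, lipocalin 2, stayed above lean but nearer to it, at 0.56 (SE 0.13) in mid-dose and 3.39 (log2) in vehicle liver, in the authors' deposited tables. Saa3, a serum amyloid of macrophages, had 6.83 FPKM in mid-dose and 8.17 FPKM in lean liver and was not called.

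Cell cycle genes were above lean where called. Of 18 tested, 11 were called higher and 0 lower in mid-dose liver, with a median of 1.02 (log2), against 18 higher of 20 in vehicle liver, with a median of 1.91, in the authors' deposited tables. With at least 1 FPKM required in either group, 4 were called higher in mid-dose liver. Ccnd1, cyclin D1, had 67.3 FPKM in mid-dose liver, against 4.76 FPKM in lean liver. Its fold change over lean was 3.82 (SE 0.19) in mid-dose and 1.88 (log2) in vehicle liver, and it was called 1.95 higher in mid-dose than in vehicle liver, in the authors' deposited tables. Top2a, the topoisomerase of dividing cells, had 0.999 FPKM in mid-dose liver, against 0.322 FPKM in lean liver, and was nearer to lean than in vehicle liver.

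Fetal and tumour-associated genes were called higher in 5 and lower in 3 of 11 tested, in the authors' deposited table. H19, an imprinted RNA of fetal liver, had 7.32 FPKM in mid-dose liver, against 0.289 FPKM in lean liver, at 4.66 (SE 0.44) in mid-dose and 2.32 (log2) in vehicle liver over lean. Ly6d, a surface protein, had 63.9 FPKM in mid-dose liver, against 4.83 FPKM in lean liver. Afp, alpha-fetoprotein, had 2.18 FPKM in mid-dose and 2.34 FPKM in lean liver and was not called. Of 11 tested cholangiocyte genes, 2 were called higher and 4 lower. Krt19, a bile duct keratin, had 1.67 FPKM in mid-dose liver, against 3.71 FPKM in lean liver, and Epcam, a marker of duct and progenitor cells, had 1.03 FPKM in mid-dose and 1.17 FPKM in lean liver, the second not called.

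Liver endothelial genes were lower than lean nearly throughout. Of 16 genes, 0 were called higher and 14 lower in mid-dose liver, with a median of -0.70 (log2) and values from -1.13 to -0.07, in the authors' deposited table. In vehicle liver 0 were called higher and 6 lower, with a median of -0.32. Stab2, a scavenger receptor of sinusoidal endothelium, had 8.18 FPKM in mid-dose liver, against 17.0 FPKM in lean liver, and became different with the drug. Bmp2, an endothelial signal that induces hepcidin, had 2.29 FPKM in mid-dose liver, against 5.02 FPKM in lean liver, and Kdr, the main VEGF receptor, had 5.68 FPKM in mid-dose liver, against 10.6 FPKM in lean liver. Bmp2 and Kdr stayed lower with no call between mid dose and vehicle. Rspo3, a Wnt agonist of central vein endothelium, had 1.51 FPKM in mid-dose liver, against 2.70 FPKM in lean liver. Pecam1, a marker of endothelium in general, fell by 0.52 (log2, SE 0.14) in the authors' deposited table.

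Markers of blood and of other tissues were low or lower than in lean liver. Of 5 tested blood cell genes, 4 were called lower, the globins Hba-a1, Hba-a2, Hbb-bs and Hbb-bt, whose copies are near-identical, with log2 fold changes from -0.62 to -0.52 in mid-dose liver and from -0.90 to -0.76 in vehicle liver, in the authors' deposited tables. The summed level of the 7 listed genes was 330 FPKM in mid-dose and 464 FPKM in lean liver. Their part in other differences was not tested. Of the pancreatic genes, Prss1, Pnlip, Amy2a5 and Cpb1 were listed at 0 in both groups. Cela1 was called lower, with 5.83 FPKM in mid-dose liver, against 17.5 FPKM in lean liver. The kidney and muscle genes Umod, Slc12a1, Ckm and Myh4 were at or under 0.0272 FPKM in both groups, and Mylpf, a muscle myosin light chain and the 1 tested gene of that list, had 2.37 FPKM in mid-dose and 3.85 FPKM in lean liver and was not called.

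The genes around Ptgds on chromosome 2 were read together because several of the largest rises lie there. Both the region and the window were chosen after their values were seen, so no test is given. Ptgds lies at chr2:25466709-25470046 (GRCm38, minus strand). Within 400 kb of it 40 genes were tested, and the authors' deposited table called 15 higher and 1 lower in mid-dose liver, against 11.7% higher and 11.5% lower over all tested genes. By at least 2 (log2) 10 of them were higher. The counts include Ptgds itself, which defined the window. They also include Lcn12, Ccdc183 and A230005M16Rik, each higher by at least 2 (log2). These had 0.194, 0.0766 and 0.104 FPKM in lean liver, under the lowest tested level of 0.244 FPKM. They were thus tested only through their mid-dose level, and the shares over all tested genes are no test of the region. Within 100 kb the counts were 6 higher and 0 lower of 12 genes. In vehicle liver 5 of the genes within 400 kb were called higher and 4 lower, against 12.1% higher and 8.53% lower over all tested genes. Noxa1, Lcn12, Ccdc183 and A230005M16Rik, among the 40, were not tested in vehicle against lean, so the 2 counts rest on different genes. Tmem141, a small membrane protein, had 498 FPKM in mid-dose liver, against 12.7 FPKM in lean liver, and BC029214 had 454 FPKM in mid-dose liver, against 19.9 FPKM in lean liver. Obp2a, an odorant-binding lipocalin, had 11.6 FPKM in mid-dose liver, against 0.302 FPKM in lean liver, and Bmyc, a relative of Myc, had 36.0 FPKM in mid-dose liver, against 5.64 FPKM in lean liver. Neighbours at the lean level stood among them. Fbxw5, an F-box protein, Abca2, a lipid transporter, and C8g, a complement chain, were at 0.30, 0.17 and 0.28 (log2) and were not called in the authors' deposited table. Several of these genes overlap, among them Clic3 with BC029214 and Fcnaos with Tmem141, Ccdc183 and Rabl6, so their values are not independent.

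**Figure D5:**
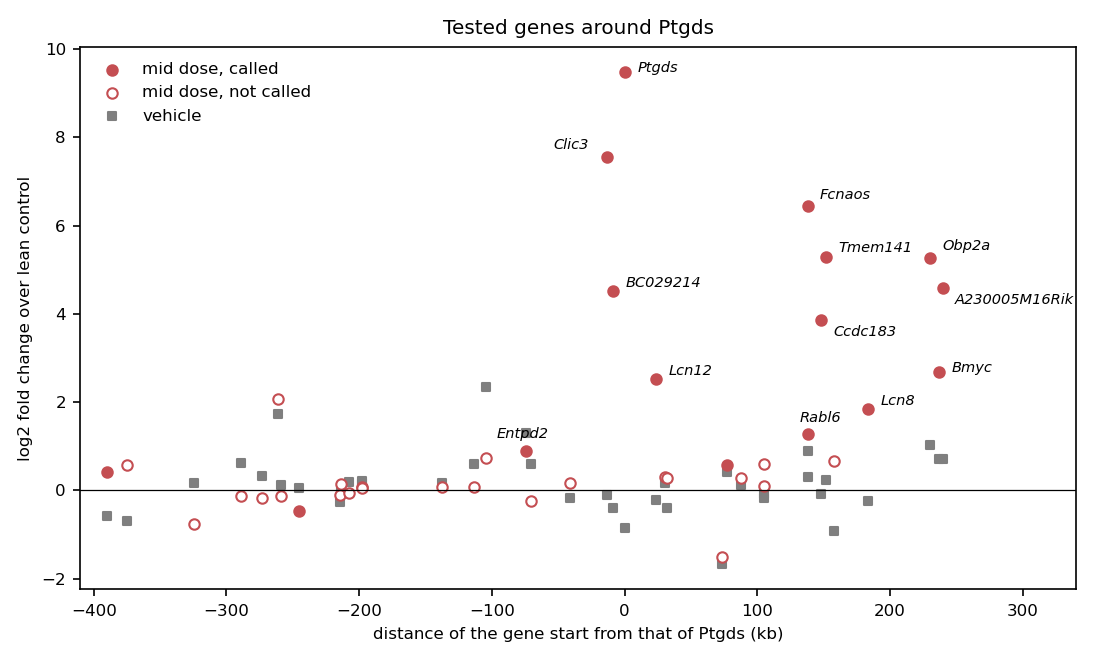
Log2 fold changes of mid-dose over lean liver for the tested genes within 400 kb of Ptgds, by distance in kb from it (red, filled where called), with vehicle over lean as grey squares; Gm25220, listed at 0 in mid-dose liver, is not drawn. Of 40 genes 15 were called higher and 1 lower, and called genes lie between genes that were not called.

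Among genes that became different with the drug, the largest rises besides those above were Tmprss4, a membrane serine protease, with 44.8 FPKM in mid-dose liver, against 0.628 FPKM in lean liver, and Ttyh1, a chloride channel relative, with 11.8 FPKM in mid-dose liver, against 0.250 FPKM in lean liver. Lpcat4, a lysophospholipid acyltransferase, had 34.2 FPKM in mid-dose liver, against 0.757 FPKM in lean liver. The antisense gene Gm11832, which overlaps Rad54b, rose too, but its reads cannot be told from those of its partner, since no source used here says whether strand was used in counting. The largest falls included Fgl1, a fibrinogen-like liver protein, with 15.2 FPKM in mid-dose liver, against 184 FPKM in lean liver, and Ugt2b1, a glucuronosyltransferase with near-identical copies, with 16.3 FPKM in mid-dose liver, against 131 FPKM in lean liver. Tox, Peli3 and Rtn4rl1, at 0.202, 0.133 and 0.542 FPKM in mid-dose liver, fell by 3.49, 3.78 and 2.72 (log2) in the authors' deposited table. RP23-465D7.3 and 1700092C10Rik, a lincRNA and an antisense RNA, fell too, at -5.49 and -3.35 on the log2 scale of the authors' deposited table.

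Genes that stayed different with no call against vehicle were led, above lean and among finite fold changes, by Kbtbd11, with 8.28 FPKM in mid-dose liver, against 0.279 FPKM in lean liver. Themis, a T cell signalling gene, and Ifi27l2b, an interferon-induced gene with near-identical copies, were 3.61 and 3.42 in mid-dose and 3.81 and 3.15 (log2) in vehicle liver over lean, in the authors' deposited tables. Slc13a5, the citrate importer of hepatocytes, had 2.14 FPKM in mid-dose liver, against 0.229 FPKM in lean liver. Below lean, Cyp17a1, a steroid hydroxylase, had 6.57 FPKM in mid-dose liver, against 30.7 FPKM in lean liver, and Prlr, the prolactin receptor, had 8.44 FPKM in mid-dose liver, against 43.4 FPKM in lean liver. Cyp17a1 was -2.23 in mid-dose and -2.40 (log2) in vehicle liver over lean, in the authors' deposited tables. These names, and those of the next sentences, were chosen after their values were seen.

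Among the 259 genes on opposite sides of lean, Mt1 and Mt2, metallothioneins with near-identical copies, had 18.7 and 6.98 FPKM in mid-dose liver, against 118 and 44.6 FPKM in lean liver, and were called above lean in vehicle liver. Dio1, the deiodinase that activates thyroid hormone, had 4.83 FPKM in mid-dose liver, against 36.6 FPKM in lean liver, at -2.92 (SE 0.14) in mid-dose and 1.04 (log2) in vehicle liver over lean, in the authors' deposited tables. Tlr5, the flagellin receptor, had 0.590 FPKM in mid-dose liver, against 5.17 FPKM in lean liver. On the other side, Cth, the cystathionine lyase of cysteine synthesis, had 570 FPKM in mid-dose liver, against 145 FPKM in lean liver, and Slc46a3, a lysosomal transporter, had 86.1 FPKM in mid-dose liver, against 18.3 FPKM in lean liver. Both were called below lean in vehicle liver.

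Genes that returned were led, in their rise in vehicle liver, by Adgrv1, an adhesion receptor, with 1.42 FPKM in mid-dose and 1.89 FPKM in lean liver. Its vehicle fold change was 3.53 (log2) over lean in the authors' deposited table. Mogat1, a monoacylglycerol acyltransferase of steatotic liver, had 0.533 FPKM in mid-dose and 1.48 FPKM in lean liver, not called, with 2.53 (log2) in vehicle liver. Among those that had been lower, Rdh11, a retinol dehydrogenase, had 46.0 FPKM in mid-dose and 43.2 FPKM in lean liver, and Fabp5, a fatty acid binding protein, had 12.5 FPKM in mid-dose and 17.5 FPKM in lean liver, with -2.64 and -2.01 (log2) in vehicle liver over lean in the authors' deposited table.

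The doses were read side by side against the same lean group, with no test between them here. The low dose had 3796 of 15937 genes called against lean (23.8%) and the high dose 4222 of 15443 (27.3%), in the authors' deposited tables. Over all tested genes the shares called were 20.6% (vehicle), 23.8% (low), 23.1% (mid) and 27.3% (high). Called genes with an absolute fold change of at least 1 (log2) numbered 1251 (vehicle), 2177 (low), 1293 (mid) and 1597 (high). The median rescaled SE was 0.224 (vehicle), 0.298 (low), 0.212 (mid) and 0.215 (high). Shares called therefore do not rank the doses by size of change. The extracellular matrix list had medians of 1.53 (vehicle), 0.82 (low), -0.12 (mid) and -0.13 (high) over lean. In that order 27 of 28, 19 of 28, 5 of 27 and 8 of 27 tested members were called. The recruited macrophage list had medians of 2.15, 2.37, 0.31 and 0.66 in the same order, with 22, 21, 8 and 14 of 24 members called. The cholesterol synthesis list had medians of -1.52, -0.31, 0.53 and 0.04, with 17, 7, 10 and 9 of 21 members called. The fatty acid synthesis list had medians of -0.63, -1.65, -0.37 and -1.21, with 11, 14, 9 and 17 of 18 members called. The mid-dose value lay above both the low-dose and the high-dose value in the last pair of lists. Cyp8b1 was at -1.17, -7.85, -6.22 and -9.73 (log2) over lean in vehicle, low, mid and high dose, and Thrsp at -0.29, 0.32, 2.60 and 1.01, in the authors' deposited tables. In both genes, too, the mid-dose value lay above those of the low and the high dose. Slc51b was at 0.87, 6.25, 6.88 and 6.94 and Ptgds at -0.86, 6.57, 9.49 and 10.49 in the same order, with the high-dose value the highest.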

How the data were processed

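Liver RNA was extracted with Trizol and sequenced from TruSeq Stranded mRNA libraries, per the labels' protocols. The submitters' processing notes name bcl2fastq, STAR 2.5.1b, Cuffnorm, Cufflinks 2.2.1, Cuffdiff and GRCm38, with no role or order. The deposited tables hold 1 FPKM per gene and group, a log2 fold change, a test statistic (a score), and a p-value and q-value, all by the authors' Cuffdiff, per the file headers. No value per mouse was used here, the depth per sample is unknown, and replicate spread enters only through the authors' test. FPKM sums over genes were 799837 in mid-dose and 798889 in lean liver.

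Groups were taken from the sample titles. The vehicle group could be set beside the mid dose because its FPKM in the mid-dose against vehicle and the vehicle against lean tables differed by a constant over 6685 genes, with a median deviation of 0.000458 (log2), against 0.0766 for the vehicle group of another drug. Each table is scaled separately, so vehicle levels are given as log2 over lean.

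A gene was called at an OK status and q under 0.05, which matched the authors' own flag in all genes. Deposited fold changes were used as they are, with no pseudocount. The SE is the fold change divided by its statistic and by 2.03, the median factor between a statistic and the normal deviate of its p-value. The factor of a single gene was within 1.5 times that in 91.3% of 12165 genes with a p between 0.0002 and 0.9. Of these genes, none outside that range of factors has an SE printed in the text. For the 2018 genes with a p of 0.0002 or less no single factor was computed. An SE printed with the smallest q was therefore not checked in this way. The computation of the classes and the SE was run on simulated data. These had the same factor for every gene and no lowest p, unlike the deposited values. The simulation therefore does not show how exact the SE is here. Promoters came from RefSeq tables on GRCm38.p6. Python 3.11.15, numpy 2.4.6, pandas 2.3.3, scipy 1.17.1 and matplotlib 3.10.9 were used.

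Named genes are 65 key genes, the 12 largest rises and falls with at least 1 FPKM in the higher group, the 8 largest of each direction among genes that became different or returned, and up to 4 called members of each of 35 lists. Other list members are named as examples. Some genes that this rule names are not reported here, though they remain in the counts. The members, lists and classes were chosen with earlier results of these data known.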

Additional observations from a re-analysis of the deposited data

Results flagged for a closer look

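Mid-dose and vehicle liver were called on opposite sides of lean liver in 259 genes. The rule for these genes asked for a call against lean in both groups, and not for a call in mid dose against vehicle. Among the key genes, the log2 fold change of mid-dose over vehicle liver was 2.55 for Nr0b2 and 1.74 for Ass1, each higher than lean in mid-dose and lower in vehicle liver. It was -1.09 for Pdgfrb, which was lower than lean in mid-dose and higher in vehicle liver.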

How the results depend on the processing

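With an absolute log2 fold change of at least 1 in each call, 705 genes were higher and 588 lower in mid-dose than in lean liver. Under the same rule 287 genes stayed different, 199 of them by the rule without a call against vehicle, 542 became different, 486 returned and 26 lay on opposite sides of lean. At q under 0.01, 140 genes lay on opposite sides, and the other 6 counts moved by less than 1.5 times. All 7 counts did so at q under 0.1 and with at least 1 FPKM in either group. The splits by opposite sides and by the call against vehicle were added after seeing the data. A pseudocount of 1 moved 98 of 218 named genes beyond their SE, by up to 6.07 (log2), and a pseudocount of 0.1 moved 26, since it pulls low genes towards 0. Centring the fold changes on their median moved none, but that median was only -0.003 (log2). Fold changes by way of vehicle moved none of 213. They rest on the same group levels and shifted by at most 0.014 (log2). Neither of these settings could therefore test the fold changes. Of 70 counts over lists, 9 moved at q under 0.01. Lower members became 5 in endoplasmic reticulum stress, 1 in LXR, and 0 each in extracellular matrix and in T, NK and B cells and neutrophils. Higher members became 5 in recruited macrophages, 2 in acute phase, and 1 each in hepatocyte identity, Kupffer cells and SREBP2. With at least 1 FPKM, higher members became 4 in cell cycle and 2 in inflammatory mediators. No direction reversed in any of these alternatives. No paired analysis was possible because the tables hold 1 value per group, and for the same reason leaving out single mice could not be run. Depth per mouse is unknown, so the smallest differences that the tables could call are not known either.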

Other observations

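Of the called genes, 15 were listed at 0 FPKM in lean liver, so no fold change is given for them. Pax2, a transcription factor of kidney development, was listed at 1.15 FPKM in mid-dose liver and at 0 in lean liver and in vehicle liver. Krt20, a keratin of gut epithelium, was listed at 0.666 FPKM in mid-dose liver, and the long intergenic RNA Gm12678 at 8.49 FPKM in mid-dose liver, both at 0 in lean liver. Of the 15, Pax2, Fabp6, Krt20 and Gm18733 were called higher than vehicle, and the rest had no call. Gm12678 was 8.74 (log2) over vehicle but not called (q = 0.333 in the authors' deposited table). Mir6358, a microRNA gene, was listed at 47.0 FPKM in mid-dose liver and at 0 in lean liver, was called above lean in vehicle liver too, and had no call between mid dose and vehicle. Another 4 called genes were listed at 0 in mid-dose liver. One of them, the antibody segment gene Igkv4-57-1, was at 0.482 FPKM in lean liver and also at 0 in vehicle liver.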
